A study of Mus musculus with 35 samples.

Results

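The 10 genes described here are the complement genes C4a and C4b, the class II genes H2-Ob and H2-Ab1, the class I and class Ib heavy chains H2-K1, H2-D1, H2-T22 and H2-T23, the peptide transporter subunit Tap1, and B2m. They were found by symbol in a count table of 39017 genes. All but B2m lie on chromosome 17, and B2m, on chromosome 2, serves as the member off that chromosome. The members were chosen by measured values: in an earlier look at these libraries, several of these genes stood apart in 3 Htt+/+ striata whose mouse ID begins with A (ID series A). Their levels in those 3 libraries are therefore given as a description, without a test. All 10 genes passed the filter on low values, which asked for 6 or more counts throughout 1 genotype group.

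RNA was measured in the striata of 35 mice aged 21.71 to 23 weeks, with 1 library per mouse, and the design asked how loss of Hdac2 in medium-spiny neurons (MSNs) changes striatal transcripts with and without the HttQ111 allele, in which mouse huntingtin carries a lengthened CAG tract. The groups were Htt+/+ Hdac2 WT (n = 8), HttQ111/+ Hdac2 WT (n = 7, CAG 110 to 140), Htt+/+ Hdac2 KO (n = 9) and HttQ111/+ Hdac2 KO (n = 11, CAG 110 to 144). Hdac2 KO mice carried 2 floxed Hdac2 alleles and the D9-Cre transgene, driven by regulatory elements of Ppp1r1b (DARPP-32) and active in MSNs, so the other striatal cells keep Hdac2. Hdac2 WT mice had no Cre and 2 floxed alleles, except for 2 Htt+/+ mice with 1 floxed allele, and both of these are among the 3 libraries. An effect of Cre alone cannot be told apart from that of the deletion. The floxed line came from a mixed C57BL/6 and 129SeEv background and was not fully backcrossed, whereas the HttQ111 and D9-Cre lines were on C57BL/6J. The 3 libraries are Htt+/+ Hdac2 WT replicates 1 (female) and 2 (male) and Htt+/+ Hdac2 KO replicate 1 (male). ID series A also holds 5 HttQ111/+ libraries.

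Class I molecules present peptides from inside the cell at its surface. A heavy chain, such as that of H2-K1 or H2-D1, pairs with beta-2-microglobulin, the product of B2m, after Tap1 and Tap2 have carried peptides into the endoplasmic reticulum. H2-T22 and H2-T23 are class Ib heavy chains, less variable between strains than the classical ones. H2-T22 is known as a ligand of some gamma-delta T cells and H2-T23 (Qa-1) as a ligand of NKG2 receptors. Class II molecules, of which H2-Ab1 encodes a beta chain, present peptides taken up from outside, and H2-Ob encodes a chain of the H2-O complex that restrains class II peptide loading. C4b encodes complement component 4, which is cleaved and deposited on surfaces in the classical pathway. C4a, its neighbour, is known as the gene of the sex-limited protein (Slp), although the annotation used here lists it as a processed transcript and not as protein-coding. The mouse MHC differs between inbred strains more than most of the genome.

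Total counts were 50970712 to 77867348 per library, and 56792576 to 58852666 in the 3 libraries. Levels are TMM-scaled counts-per-million (CPM) and are compared between libraries, not between genes. Hdac2 itself, counted over the whole gene, averaged 103 and 105 CPM (SD 3.42 and 4.76, n = 8 and 7) in the Htt+/+ and HttQ111/+ WT groups and 94.4 and 95.2 CPM (SD 2.98 and 3.45, n = 9 and 11) in the respective KO groups. The deletion takes out only some exons of Hdac2, so reads of its other exons, and of cells other than MSNs, still count. The study reported a marked loss of reads from the deleted exons and loss of HDAC2 protein in KO striata. The 9 MSN markers summed to 5720 to 9060 CPM over all 35 libraries. The blood and perivascular leukocyte markers summed to 16.7 to 30.7 CPM. RNA was extracted on dates that nearly follow the Hdac2 genotype. In bulk tissue, fewer cells of a type and less RNA per cell cannot be told apart.

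On GRCm38 the chromosome 17 members span 2.05 Mb, from H2-K1 at 33996017 to the end of H2-T22 at 36042747. C4b (chr17:34728380-34743882, minus strand) and C4a (chr17:34809092-34823464, minus strand) lie in its middle, and H2-Ob (chr17:34238903-34245798, plus strand) lies before them. H2-D1 (chr17:35262730-35267499, plus strand) follows, and H2-T23 (chr17:36029773-36032730) and H2-T22 (chr17:36037128-36042747), both on the minus strand, lie at the far end. Similar genes can share reads: of all 75-base windows in the annotated transcripts of H2-T22, 40.0% also occur in transcripts of another gene, mostly A930015D03Rik, which overlaps H2-T22 and H2-T23 on the other strand. The share was 19.7% for C4a and 22.7% for C4b, all of it between these 2 genes, 5.91% for H2-T23, 5.56% for H2-D1, 3.10% for H2-K1, 2.40% for Tap1, and 0 for B2m, H2-Ob and H2-Ab1. As unique alignments were counted, reads wholly in windows found at separate places in the genome, as in C4a and C4b, are lost to both genes. Where genes overlap at the same place, as H2-T22 and A930015D03Rik do, a read still aligns uniquely and can be counted.

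The promoters of 4 class I genes are shown because 3 of these genes passed the test with Hdac2 KO in HttQ111/+ mice and the fourth, H2-K1, did not. Each runs 5′ to 3′ from 250 bases before to 50 bases after the RefSeq start (GRCm38.p6). Capitals mark matches on either strand to TTCNNTTTC (core of the interferon-stimulated response element), GGGATTCCC (a kappa B site), CCAAT and TGACG.
H2-T22 (chr17:36042693-36042992, minus strand): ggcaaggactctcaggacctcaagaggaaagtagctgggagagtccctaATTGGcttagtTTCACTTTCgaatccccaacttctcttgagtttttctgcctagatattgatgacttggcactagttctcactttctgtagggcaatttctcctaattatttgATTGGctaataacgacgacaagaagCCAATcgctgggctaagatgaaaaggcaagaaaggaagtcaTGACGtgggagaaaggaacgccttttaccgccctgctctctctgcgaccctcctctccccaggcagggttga
B2m (chr2:122147437-122147736, plus strand): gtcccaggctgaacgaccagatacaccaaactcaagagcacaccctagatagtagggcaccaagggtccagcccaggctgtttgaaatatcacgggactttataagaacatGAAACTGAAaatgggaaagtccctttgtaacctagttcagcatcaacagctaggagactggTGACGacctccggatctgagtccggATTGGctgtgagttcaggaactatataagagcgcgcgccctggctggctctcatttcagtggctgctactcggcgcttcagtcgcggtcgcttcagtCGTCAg
H2-D1 (chr17:35262844-35263143, plus strand): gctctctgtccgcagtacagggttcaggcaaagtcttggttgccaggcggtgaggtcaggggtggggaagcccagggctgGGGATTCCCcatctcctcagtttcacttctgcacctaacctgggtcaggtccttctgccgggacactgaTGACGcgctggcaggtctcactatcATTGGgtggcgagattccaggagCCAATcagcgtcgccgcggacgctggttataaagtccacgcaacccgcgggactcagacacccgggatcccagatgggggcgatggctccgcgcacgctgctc
H2-K1 (chr17:34000284-34000583, minus strand): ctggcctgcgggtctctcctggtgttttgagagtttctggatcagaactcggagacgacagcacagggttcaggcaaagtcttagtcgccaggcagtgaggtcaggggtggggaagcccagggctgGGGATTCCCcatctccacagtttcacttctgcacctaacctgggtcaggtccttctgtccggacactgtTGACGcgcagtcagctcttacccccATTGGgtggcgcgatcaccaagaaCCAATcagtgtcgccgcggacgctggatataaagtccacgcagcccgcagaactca
The reference holds promoters for 7 of the 10 genes, and TTCNNTTTC occurs in 3 of them (H2-T22, H2-T23 and B2m), against 8.56% of 32851 promoters. GGGATTCCC occurs in H2-D1 and H2-K1, against 0.353% of all promoters. CCAAT occurs in all 7, against 37.4%, and TGACG in 5, against 20.8%. H2-D1 and H2-K1 thus hold the same set of letters, and a match is not evidence of binding. Only H2-D1 passed the test, but its call held in 5 of 12 alternative fits. Whether these genes differ in their response was not tested.

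The complement genes had higher levels in the 3 libraries than in any other library. C4a had 18.8 and 22.6 CPM in the Htt+/+ Hdac2 WT libraries and 21.2 CPM in the Htt+/+ Hdac2 KO library of ID series A. The other 32 libraries ranged from 3.57 to 8.25 CPM with a median of 5.38 CPM, so no range overlapped, and the mean on the log2 scale was 3.76-fold higher in the 3. C4b had 124, 159 and 162 CPM in the same libraries, against 24.7 to 87.3 CPM (median 44.1 CPM) in the other 32, a 3.22-fold difference. Slp was named for its androgen dependence in some strains. Of the 3 libraries, 1 is from a female, with 18.8 CPM of C4a. In the other 32 libraries C4a had medians of 5.41 CPM in 20 males and 5.34 CPM in 12 females. The part of sex in the levels of the 3 libraries was not tested.

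The class II genes did not move together. H2-Ob had 2.65, 3.28 and 3.11 CPM in the 3 libraries, against 0.566 to 1.49 CPM (median 0.939 CPM) elsewhere, and was 3.01-fold higher with no overlap. H2-Ab1 had 0.335, 0.514 and 0.429 CPM in these libraries, inside the range of 0.0726 to 0.936 CPM in the others. Its counts were 4 to 54 per library, which leaves its level poorly measured.

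The class I and class Ib heavy chains among the members went the other way in the 3 libraries. Class I genes outside the members moved in both directions there. On the log2 scale H2-T10 (0.84, no overlap) and H2-Q7 (0.85) were higher and H2-Q4 (−0.38) lower, the last 2 with overlap. CPM counts reads aligned to the reference, and how well reads of another strain's sequence align was not examined. H2-T22 had 7.84, 8.74 and 11.6 CPM, below all other libraries (12.1 to 24.6 CPM, median 19.9 CPM), and the log2 mean was 0.510 times that of the others. H2-D1 had 21.9, 22.2 and 24.5 CPM, against 25.3 to 53.2 CPM (median 33.1 CPM), 0.691 times the others, with a small gap between 24.5 and 25.3 CPM. H2-T23 had 6.24, 6.79 and 5.62 CPM against 6.43 to 15.3 CPM, and H2-K1 had 21.3, 18.2 and 17 CPM against 18.8 to 39.8 CPM. Both of these were low in the 3 libraries, but their ranges overlapped those of the others. H2-T23 is the member just outside the separation, its highest value of the 3 lying above the lowest of the others, and H2-D1 the one just inside it.

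The remaining members did not separate the 3 libraries. B2m had 76.8, 71.3 and 88.6 CPM in them against 58.3 to 118 CPM in the other 32, a ratio of 0.964. Tap1 had 1.27, 2.00 and 1.34 CPM against 1.16 to 3.03 CPM. Thus 5 of the 10 genes stood apart, 3 higher and 2 lower, which is the contrast that chose the members, and over all 17346 genes that passed the filter in at least 1 group the share was 0.156%. The 5 HttQ111/+ libraries of ID series A lay with the rest. They had 4.34 to 5.66 CPM of C4a, 0.827 to 1.30 CPM of H2-Ob and 14.4 to 20.9 CPM of H2-T22. Cell type markers in the 3 libraries mostly lay in the range of the others. The microglia markers summed to 540 to 600 CPM against 498 to 677 CPM, the 8 endothelial markers to 269 to 282 CPM against 227 to 365 CPM, and the 8 astrocyte markers to 2390 to 2520 CPM against 2150 to 3040 CPM. The 8 oligodendrocyte markers, at 7250 to 10000 CPM against 5460 to 8350 CPM, and the 8 choroid plexus markers, at 28.2 to 214 CPM against 17.4 to 149 CPM, reached above the others in 1 or more of the 3. Their part in these levels was not tested.

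**Figure D1:**
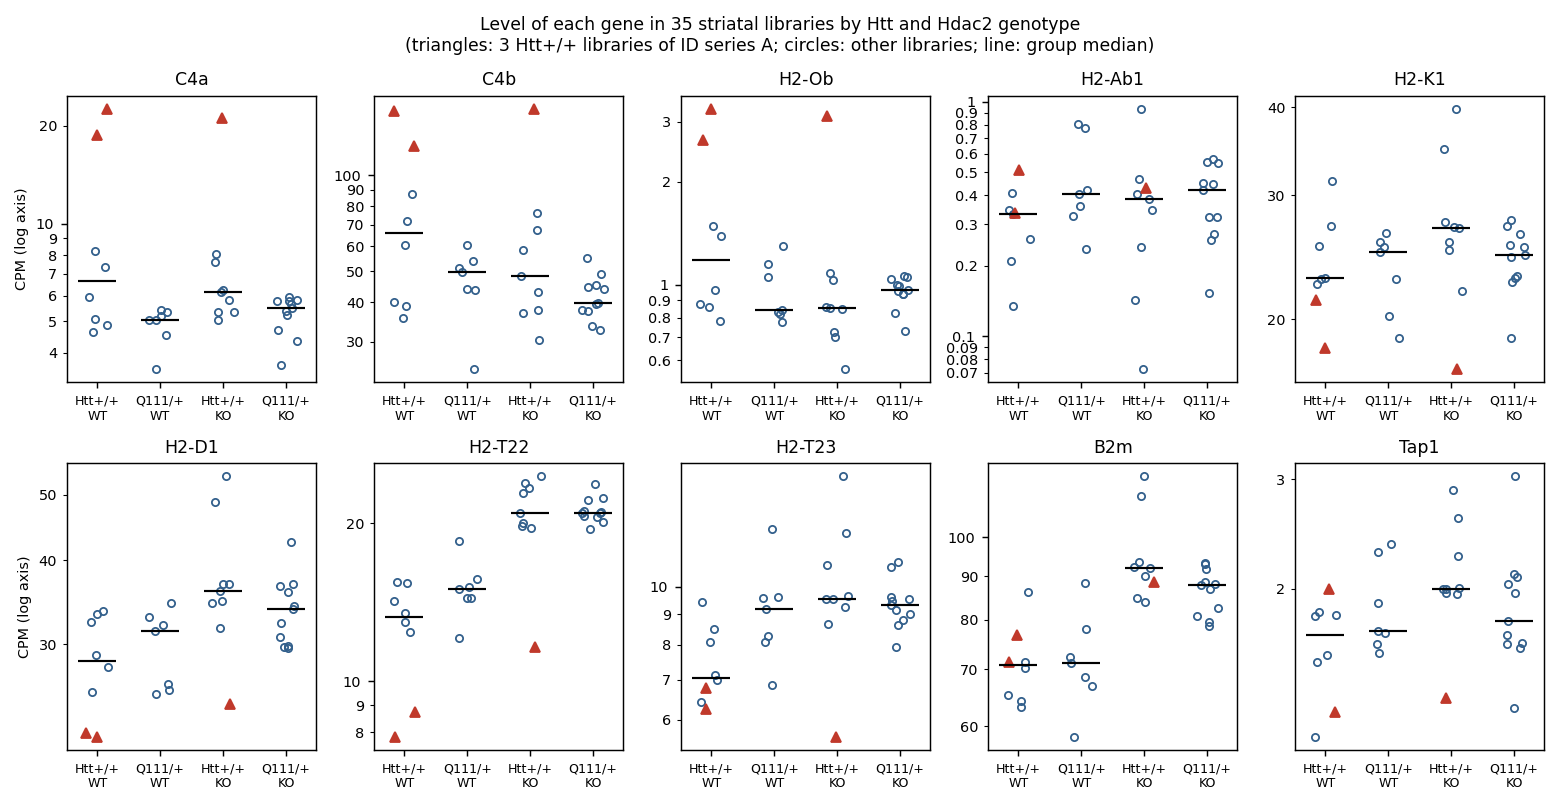
CPM (log axes, 1 panel per gene) in the 35 libraries by genotype group, with triangles for the 3 Htt+/+ libraries of ID series A, circles for the others and a line at each group median. The triangles lie above all circles for C4a, C4b and H2-Ob and below all circles for H2-T22 and H2-D1, and KO circles lie above WT circles for H2-T22.

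Genes that set the 3 libraries apart were concentrated on chromosome 17. Of 844 genes there that passed the filter, 22 (2.61%) had all 3 libraries above or all below the other 32, against 5 of 16502 genes (0.0303%) on all other chromosomes and scaffolds. Of the 22, 5 are members, which this contrast chose, and the shares by position count them too. No test was made. Between the first and the last chromosome 17 member, 9 of 111 genes (8.11%) stood apart, 7 higher and 2 lower, and 4 of the 9 are not members. By 5 Mb windows, the share was highest from 30 to 35 Mb (9 of 125 genes, 7.20%) and from 35 to 40 Mb (6 of 81 genes, 7.41%). No gene stood apart beyond 50 Mb. The first such gene on the chromosome was Tmem181a, at chr17:6270475-6305783, and the last was Tjap1, at chr17:46257851-46283026.

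**Figure D2:**
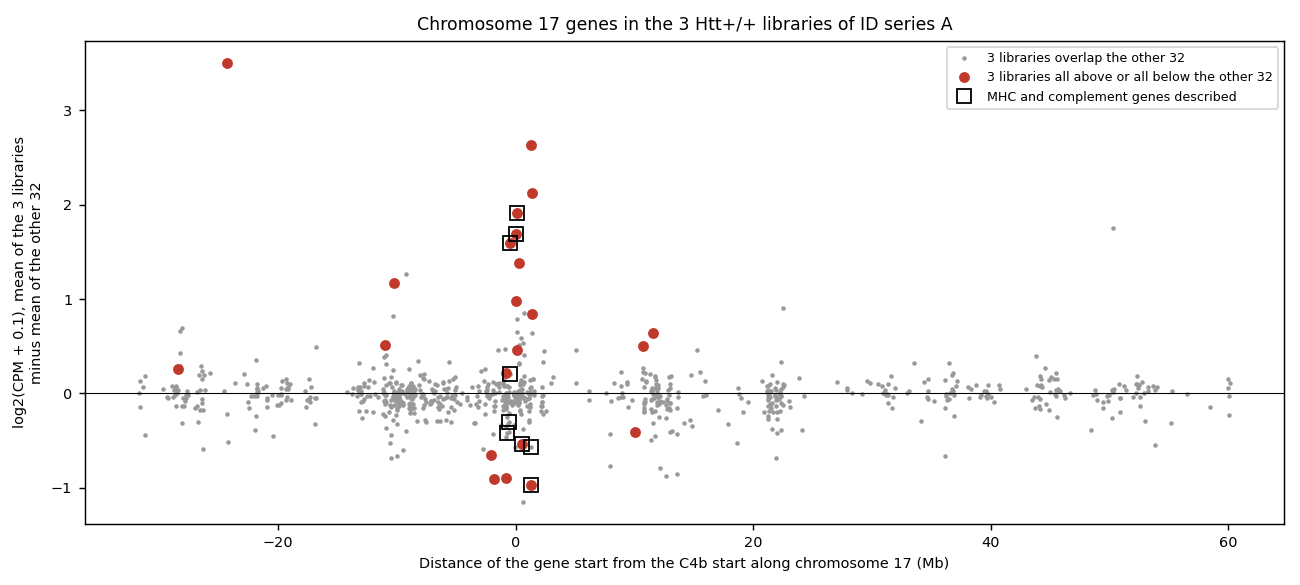
Difference in mean log2(CPM + 0.1) between the 3 Htt+/+ libraries of ID series A and the other 32, against the distance in Mb of each chromosome 17 gene from C4b. Of 844 genes, the 22 in red do not overlap, black squares mark the members, and most red points lie within a few Mb of C4b with values both above and below 0.

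**Figure D3:**
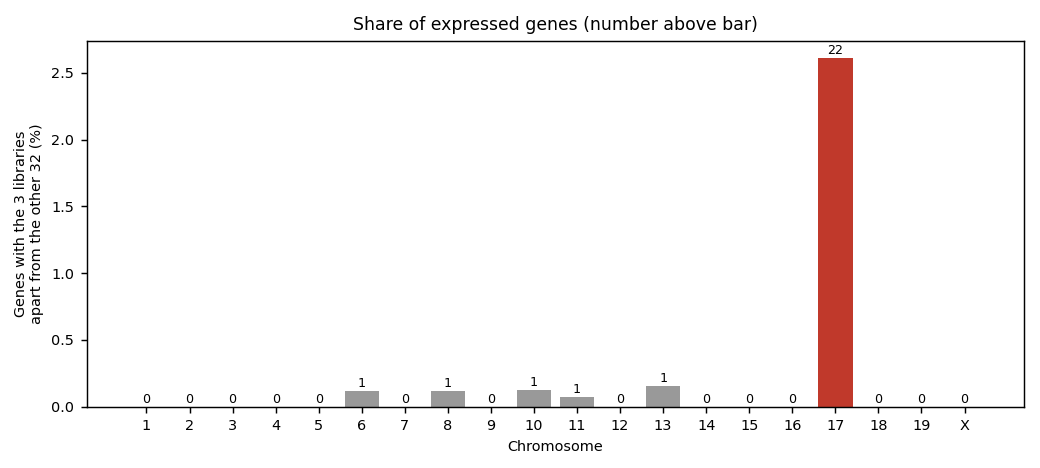
Percent of genes on each chromosome in which the 3 libraries do not overlap the other 32, with the number of such genes above each bar. Chromosome 17 has 22 of 844 genes (2.61%), and no other chromosome has more than 1 gene.

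Among the genes whose log2 CPM followed C4a most closely over the 35 libraries were Gm10260 (Pearson r = 0.87), A930015D03Rik (0.82), C920025E04Rik (0.80) and Stk19 (0.70), the gene next to C4a. For H2-Ob they included Gm10260 (0.90), A930015D03Rik (0.75), C920025E04Rik (0.72) and B230354K17Rik (0.71). All but Gm10260, on chromosome 13, are on chromosome 17, and these correlations rest largely on the 3 libraries, which hold the high values of each gene. A930015D03Rik, the RNA that overlaps H2-T22, had 5.74, 5.99 and 5.93 CPM in the 3 libraries against 0.385 to 1.37 CPM in the others, whereas H2-T22 was low there. Gm10260 had 22.8 to 24.0 CPM against 0.910 to 1.92 CPM. The annotation lists it as a pseudogene of Rps18, a ribosomal protein gene near H2-K1, and Rps18, named after its values were seen, had 14.3 to 16 CPM in the 3 libraries against 26.0 to 31.6 CPM.

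H2-K1 had other neighbours in this measure. Its closest genes included H2-Q4, a class Ib heavy chain (r = 0.79), Gbp4, an interferon-inducible GTPase (0.72), Cyp4f15 (0.71) and Slc38a3 (0.68). Of those named, H2-Q4 and Cyp4f15 are on chromosome 17.

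Across the 4 genotype groups without the 3 libraries, H2-T22 separated by Hdac2 genotype and B2m nearly so. The other members overlapped, apart from Tap1 in Htt+/+ mice. Outside the 3 libraries, the mean H2-T22 level was 14.0 CPM (SD 1.27, n = 6) for Htt+/+ Hdac2 WT, 15 ± 1.92 CPM (n = 7) for HttQ111/+ Hdac2 WT, 21.9 ± 2.03 CPM (n = 8) for Htt+/+ Hdac2 KO and 21.2 ± 1.18 CPM (n = 11) for HttQ111/+ Hdac2 KO. The WT groups overlapped each other, as did the KO groups. B2m had 70.0 ± 8.61, 72.0 ± 9.45, 95.8 ± 12.4 and 86.5 ± 5.35 CPM in the same order of groups. For H2-D1 the values were 30.3 ± 3.33, 29.7 ± 3.87, 39.1 ± 7.61 and 33.8 ± 4.0 CPM, and for H2-K1 25.3 ± 3.47, 23.5 ± 2.95, 28.6 ± 5.82 and 24.4 ± 2.51 CPM. Both genes varied most among Htt+/+ Hdac2 KO mice, and all 4 groups overlapped. H2-T23 had 7.76 ± 1.12, 9.16 ± 1.76, 10.6 ± 2.19 and 9.39 ± 0.897 CPM, and Tap1, a subunit of the peptide transporter, had 1.62 ± 0.265, 1.88 ± 0.32, 2.21 ± 0.351 and 1.90 ± 0.451 CPM. C4a had 6.03 ± 1.48, 4.88 ± 0.642, 6.2 ± 1.09 and 5.26 ± 0.726 CPM and C4b 55.7 ± 21.0, 46.8 ± 11.3, 49.8 ± 16.1 and 41.7 ± 6.69 CPM. For both complement genes the Htt+/+ groups had the wider spread, and neighbouring groups overlapped. H2-Ob stood at 1.06 ± 0.301, 0.967 ± 0.201, 0.834 ± 0.172 and 0.954 ± 0.0983 CPM and H2-Ab1 at 0.282 ± 0.1, 0.475 ± 0.223, 0.375 ± 0.264 and 0.393 ± 0.137 CPM.

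Loss of Hdac2 was accompanied by higher H2-T22 and B2m on both Htt backgrounds, and this did not depend on the 3 libraries. The HttQ111/+ comparison holds none of them. There, H2-T22 had 12.1 to 18.5 CPM (median 15 CPM) in 7 Hdac2 WT libraries and 19.5 to 23.8 CPM (median 20.9 CPM) in 11 Hdac2 KO libraries. All KO libraries lay above all WT libraries, which was so for 0.824% of genes. The log2 fold change was 0.44 (SE 0.080, adjusted p = 0.000173, edgeR quasi-likelihood test, Benjamini-Hochberg adjusted over all genes). B2m had 58.3 to 88.5 CPM (median 71.2 CPM) in WT and 78.6 to 93.3 CPM (median 88.0 CPM) in KO libraries, with some overlap, and a log2 fold change of 0.33 (SE 0.057, adjusted p = 1e-04). H2-D1 had 25.3 to 34.5 CPM in WT and 29.6 to 42.6 CPM in KO libraries, and its log2 fold change of 0.23 (SE 0.074, adjusted p = 0.0281) had an adjusted p of 0.0690 once the 3 libraries, which are in neither group, were left out of the fit. These 3 of 10 members were called, all higher, against 16.5% of the genes tested, and 2 of 10 against 18.2% in the fit without the 3 libraries.

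The other members gave no call in HttQ111/+ mice. H2-K1 had a fold change of 1.03 (95% interval 0.917 to 1.15), H2-T23 of 1.07 (0.953 to 1.2), Tap1 of 0.997 (0.807 to 1.23), C4a of 1.13 (0.823 to 1.55) and C4b of 0.959 (0.694 to 1.32). H2-Ob stood at 1.01 (0.799 to 1.27) and H2-Ab1 at 0.753 (0.446 to 1.27). The interval of C4a holds the 1.36-fold change of H2-T22, and those of C4b and H2-Ab1 hold falls of similar size.

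In Htt+/+ mice the same comparison depended in part on the 3 libraries, 2 of which are WT and 1 KO. With all libraries, 5 of 10 members were called, against 17.8% of genes: H2-T22 (log2 fold change 0.67, SE 0.091, adjusted p = 2.47e-06), B2m (0.36, SE 0.064, adjusted p = 0.000155), H2-D1 (0.37, SE 0.083, adjusted p = 0.0016) and H2-T23 (0.29, SE 0.098, adjusted p = 0.0397) were higher and H2-Ob (−0.71, SE 0.18, adjusted p = 0.00593) lower. Without the 3 libraries, H2-T22 (0.56, adjusted p = 2.57e-06) and B2m (0.32, adjusted p = 0.000532) were called, 2 of 10 members against 19.0% of genes. H2-D1 (0.23, adjusted p = 0.133), H2-T23 (0.22, adjusted p = 0.190) and H2-Ob (−0.48, adjusted p = 0.0908) were not. Levels of H2-T22 in these remaining libraries were 12.4 to 15.5 CPM in 6 WT and 19.6 to 24.6 CPM in 8 KO mice, without overlap, which 3.39% of genes showed in this direction. Among the 3 libraries themselves, the KO library had more H2-T22 (11.6 CPM) than both WT libraries (7.84 and 8.74 CPM).

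Extraction date moves with these results. With date in place of the surrogate variables, H2-T22 in HttQ111/+ mice had a log2 fold change of 0.48 with an adjusted p of 0.174, while B2m kept its call (adjusted p = 0.0304). In Htt+/+ mice that fit moved the log2 fold change of B2m from 0.36 to 0.61 (adjusted p = 0.000654). H2-D1 kept its call in 5 of 12 alternative fits in HttQ111/+ mice (adjusted p 0.00524 to 0.552), and on 25 May its KO library, at 30.8 CPM, lay below both WT libraries (32 and 34.5 CPM). Within 25 May, the 1 HttQ111/+ KO library had 20.1 CPM of H2-T22 and the 2 WT libraries 15.7 and 18.5 CPM, and for B2m the values were 88.7 CPM against 72.4 and 88.5 CPM. Within 27 May, the 1 Htt+/+ KO library had 24.6 CPM of H2-T22 against 12.4 to 15.4 CPM in 3 WT libraries, and 118 CPM of B2m against 63.2 to 71.3 CPM. Within each of ID series A, V and Z, all KO libraries had more H2-T22 than the WT libraries of the same Htt genotype. The 10 microglia markers summed to 498 to 619 CPM in Htt+/+ WT and 588 to 677 CPM in Htt+/+ KO libraries, and to 515 to 592 CPM and 516 to 675 CPM in HttQ111/+ WT and KO libraries, and none of the 10 was called in the Hdac2 comparisons. The 8 endothelial markers summed to 259 to 328 and 267 to 365 CPM in Htt+/+, and to 227 to 291 and 240 to 337 CPM in HttQ111/+ libraries. The 9 MSN markers summed to 5720 to 7800 CPM (median 6150 CPM) in HttQ111/+ WT and 6430 to 8160 CPM (median 7280 CPM) in HttQ111/+ KO libraries, with 2 of 9 called higher and 0 lower. In Htt+/+ mice the sums were 7890 to 9060 CPM in WT and 7450 to 8790 CPM in KO libraries, with 2 higher and 2 lower. The part of date and of these cells in the results was not tested.

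Of the other class I and class Ib genes, H2-Q2 and H2-T10 rose with Hdac2 KO in HttQ111/+ mice. Of 18 class I and class Ib genes tested, 5 were higher and 0 lower in HttQ111/+ mice, with a list median of 0.15 on the log2 scale against −0.004 over all genes. The 5 were H2-Q2, H2-T10 and the members H2-T22, H2-D1 and B2m, and 16.5% of all genes were called in that comparison. In Htt+/+ mice without the 3 libraries, 4 were higher (H2-Q2, H2-T10, H2-T22 and B2m) and 0 lower, with a median of 0.20. Of all genes, 19.0% were called there. H2-Q2, a class Ib heavy chain, had 0.938 to 1.85 CPM in 7 WT and 4.94 to 12 CPM in 11 KO libraries, with no overlap and a log2 fold change of 2.44 (SE 0.17, adjusted p = 4.33e-11). In Htt+/+ mice without the 3 libraries its log2 fold change was 2.57 (SE 0.17, adjusted p = 1.27e-11). H2-T10, a close relative of H2-T22, had 2.11 to 2.48 CPM in HttQ111/+ WT and 3.26 to 4.58 CPM in KO libraries (log2 fold change 0.67, SE 0.15, adjusted p = 0.00227). H2-T10 stood at 5.01, 5.90 and 6.25 CPM in the 3 libraries, above all others, the reverse of H2-T22. H2-Q1, at 0.141 to 0.698 CPM in HttQ111/+ libraries, was higher in the fit without the 3 libraries (0.70, SE 0.23, adjusted p = 0.0334) and not called with all libraries.

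Of 14 genes of class I peptide loading, 5 were higher and 0 lower in HttQ111/+ mice (median 0.09), and 4 higher and 0 lower in Htt+/+ mice without the 3 libraries (median 0.19). Over all genes the shares called in either direction were 16.5% and 19.0%. Psmb10, an immunoproteasome subunit, had 6.76 to 13.8 CPM in HttQ111/+ WT and 8.92 to 14.1 CPM in KO libraries, with a log2 fold change of 0.43 (SE 0.075, adjusted p = 0.000116). Tapbpl, a peptide editor related to tapasin, rose by 0.38 (SE 0.091, adjusted p = 0.00328) and Psme1, a proteasome activator subunit, by 0.23 (SE 0.063, adjusted p = 0.0113). Pdia3, a chaperone of the loading complex, rose by 0.14 (SE 0.040, adjusted p = 0.0117). Tap1 was not called on either background.

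The remaining lists had smaller shares of their genes called with Hdac2 KO. In HttQ111/+ mice edgeR called 16.5% of all genes and DESeq2 3054 of 17169, and in Htt+/+ mice without the 3 libraries edgeR called 19.0%. None of 27 interferon response genes was called in HttQ111/+ mice by edgeR or DESeq2. With all libraries 0 had an unadjusted p under 0.05 (median −0.09), and without the 3 libraries 1 did. In Htt+/+ mice without the 3 libraries, 2 of 29 were higher, among them Igtp (0.44, adjusted p = 0.0386), an interferon-inducible GTPase. The list median there was 0.10, and 0.16 with all libraries. For HttQ111/+ against Htt+/+ in Hdac2 KO mice, the list had a median of −0.29 with all libraries. There edgeR called 0 of 28, and 10 had an unadjusted p under 0.05, against 1287 of 17110 genes. Without the 3 libraries the median was −0.21, with 6 at that level. Of 10 class II and accessory genes, 0 were called in HttQ111/+ mice by edgeR or DESeq2. With all libraries 0 had an unadjusted p under 0.05, and without the 3 libraries 1 did. Of 25 complement genes, 1 was lower in HttQ111/+ mice, Itgam (−0.19, SE 0.055, adjusted p = 0.0182), the alpha chain of complement receptor 3, and 1 was lower in Htt+/+ mice without the 3 libraries, Clu (−0.20, SE 0.044, adjusted p = 0.00158), a complement inhibitor. The fitted sign of Itgam runs against its group means without covariates, which were 37.7 CPM (SD 6.51, n = 7) for HttQ111/+ WT and 38.6 CPM (SD 7.81, n = 11) for HttQ111/+ KO libraries. Of 54 neighbours of the MHC genes with no role in antigen presentation, 1 was higher and 4 lower in HttQ111/+ mice, where 16.5% of all genes were called. In Htt+/+ mice without the 3 libraries, where 19.0% were called, 2 were higher and 6 lower. Neither share exceeds the background. Vwa7 was lower on both backgrounds (−0.62, adjusted p = 0.0232, and −1.10, adjusted p = 0.000341, respectively), and Ehmt2, a histone H3 lysine 9 methyltransferase, was higher (0.10, adjusted p = 0.0195, and 0.15, adjusted p = 0.0192). Kifc1, a mitotic kinesin, was higher in Htt+/+ mice without the 3 libraries (0.95, adjusted p = 0.00347).

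The HttQ111 allele gave calls for 4 members that rested on the 3 libraries and also on the choice of covariates. In Hdac2 WT mice with all libraries, H2-Ob (log2 fold change −1.05, SE 0.17, adjusted p = 0.00413), C4a (−1.29, SE 0.24, adjusted p = 0.00823) and C4b (−1.11, SE 0.25, adjusted p = 0.0394) were lower and H2-T22 (0.48, SE 0.086, adjusted p = 0.00679) higher in HttQ111/+ than in Htt+/+ libraries. The background was 0.403% of genes, and 2 of the 8 Htt+/+ libraries in this comparison are among the 3 that chose the members. With all libraries kept, no member was called without surrogate variables, with sex in their place or with a replicate block added. Only C4a was called with extraction date or ID series in their place. Over 12 alternative fits, C4a kept its call in 6, H2-Ob and H2-T22 each in 4, and C4b in 3. Without the 3 libraries the log2 fold changes were −0.11 for H2-Ob, −0.29 for C4a, −0.25 for C4b and 0.07 for H2-T22, with adjusted p from 0.225 to 0.809. No member was called by edgeR in that fit, 2 of 10 (H2-K1 and C4a) had an unadjusted p under 0.05, and 2.49% of all genes were called. C4a had 4.64 to 8.25 CPM (median 5.51 CPM) in the 6 remaining Htt+/+ Hdac2 WT libraries and 3.57 to 5.42 CPM (median 5.06 CPM) in 7 HttQ111/+ libraries, which overlap. The 95% interval of its fold change, 0.689 to 0.968, excludes the 0.408-fold level estimated with all libraries. The study lists C4a among genes changed in the same direction in its own comparison and in another set of HttQ111/+ striata. That set was not examined here. MSN markers moved with HttQ111 in the same mice. Their sum was 7890 to 9060 CPM in Htt+/+ and 5720 to 7800 CPM in HttQ111/+ Hdac2 WT libraries, and 5 of the 9 were lower with all libraries and 7 of 9 without the 3, and their part in the member values was not tested. The MHC-region neighbour Egfl8 was lower with HttQ111 in that fit (−0.65, SE 0.12, adjusted p = 0.00369), and Itgam was higher (0.27, SE 0.060, adjusted p = 0.0140).

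In Hdac2 KO mice, where 1 of the 9 Htt+/+ libraries is among the 3, no member was called by edgeR for HttQ111/+ against Htt+/+. Of the 10, 4 members (C4a, C4b, H2-Ob and H2-T22) had an unadjusted p under 0.05 in edgeR, which called 0.00584% of all genes. DESeq2, with all libraries, called 1 member (H2-T22, adjusted p = 0.0491) and 45 of 17110 genes. C4a had a log2 fold change of −0.68 (SE 0.19, adjusted p = 0.209) with all libraries and −0.20 (SE 0.11, adjusted p = 0.537) without the 3. C4b had −0.75 (SE 0.20, adjusted p = 0.182) and −0.31 (SE 0.15, adjusted p = 0.461). Without the 3 libraries, 0 of 10 members were called, 1 (C4b) had an unadjusted p under 0.05, and 0.0409% of genes were called. The difference between the HttQ111 effects on the Hdac2 backgrounds was not called for any member by edgeR (background 0.00577%) or DESeq2, with 1 member (H2-Ob) at an unadjusted p under 0.05 in edgeR.

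**Figure D4:**
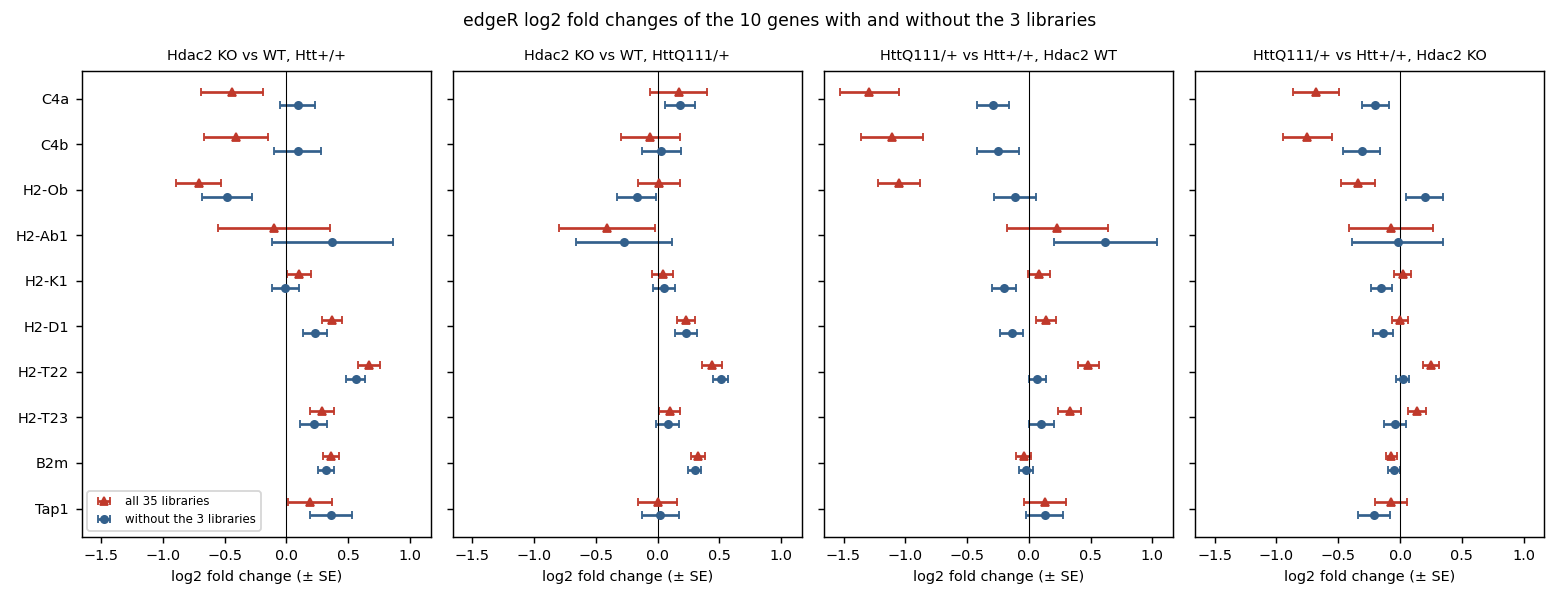
edgeR log2 fold changes (points) with their SE (bars) for the 10 genes in 4 comparisons, with all 35 libraries (triangles) and without the 3 Htt+/+ libraries of ID series A (circles). For HttQ111/+ against Htt+/+ in Hdac2 WT mice, C4a moves from −1.29 to −0.29 and H2-T22 from 0.48 to 0.07, whereas H2-T22 with Hdac2 KO in HttQ111/+ mice stays at 0.44 and 0.51.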

How the data were processed

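Per the labels and the study's methods, the authors prepared stranded mRNA libraries, mapped the read pairs with GSNAP (GRCm38) and used bedtools to count uniquely placed reads across each Ensembl gene from start to end. They deposited raw read counts per gene, without normalization. Introns are included, overlapping genes can share reads, and whether strand was used in counting is not given in the sources used here.

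The table has 39109 entries. Left out were 92 spike-in controls (ERCC), 2 mitochondrial rRNA genes and 6152 genes no longer than 250 nt. Counts were scaled by TMM and fitted with edgeR 4.0.16 (quasi-likelihood, legacy form; R 4.3.3) over all 35 libraries with 4 genotype groups and 9 surrogate variables (sva 3.50.0; 7 without the 3 libraries), after the study's methods. A gene was tested when 1 of the groups compared had 6 or more counts throughout. P values were adjusted by Benjamini-Hochberg over all genes tested, with a threshold of 0.05. The 95% intervals come from the SE of the fit. DESeq2 1.42.0 was an alternative. The fit without surrogate variables was tested on simulated data, and the fit with them was not. A pseudocount of 0.1 CPM was used for log2 differences. Promoters are from RefSeq. P values measure the spread between mice of 1 library each.

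Named beside the 10 members were, per gene list, up to 4 genes with the largest change among those called in HttQ111/+ mice or without the 3 libraries, and the 5 genes most correlated with C4a, H2-Ob and H2-K1. Some genes that met this rule are not reported here. The members and lists were chosen with earlier results of these data known. The covariates, libraries, scaling, test and filters were varied as alternatives.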

Additional observations from a re-analysis of the deposited data

Results flagged for a closer look

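Of 30 combinations of a member and a group of 7 to 9 libraries, 5 held a library far from the rest by Dixon's criterion, all in Htt+/+ Hdac2 KO mice, and chance marks about 1 in 20. In 4 of the 5 the library was replicate 1, the only one of ID series A in that group: C4a at 21.2 CPM, C4b at 162 CPM and H2-Ob at 3.11 CPM as the highest, and H2-T22 at 11.6 CPM as the lowest. The fifth was H2-Ab1 at 0.936 CPM in replicate 6, of ID series Z. The first 4 are among the values that chose the members. The Htt+/+ Hdac2 WT group holds the other 2 of the 3 libraries, with C4a at 18.8 and 22.6 CPM. A criterion for a single extreme value can miss 2 that lie side by side, so no flag there does not mean no outlying library.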

How the results depend on the processing

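Of 590 member values under an alternative, 529 stayed on the same side of the threshold, 59 lost and 2 gained a call, and no called value changed sign, whereas 86 changed sign while below the threshold in both fits. H2-T22 kept its Hdac2 KO call in 12 of 12 alternatives in Htt+/+ mice (adjusted p 5.75e-12 to 0.0224) and in 11 of 12 in HttQ111/+ mice (5.03e-07 to 0.174), and B2m in 11 of 12 (1.93e-06 to 0.0956) and 12 of 12 (4.33e-07 to 0.0304). Extraction date in place of surrogate variables moved the genes called with Hdac2 KO from 3056 to 822 in Htt+/+ and from 2841 to 331 in HttQ111/+ mice, and those called with HttQ111 from 69 to 419 in Hdac2 WT and from 1 to 0 in Hdac2 KO mice. ID series as the covariate gave 837 and 2 for HttQ111. The groups compared alone gave 5094 genes with Hdac2 KO in Htt+/+ mice, and 0 and 3 with HttQ111. Without the 3 libraries these HttQ111 counts were 428 and 7, without the 8 libraries of ID series A 905 in Hdac2 WT, with DESeq2 154 and 45, and with no count filter 34 and 4. RLE scaling and keeping short genes each gave 3 in Hdac2 KO mice. On chromosome 17, 58 genes (6.87%) set the 3 libraries apart from the 5 HttQ111/+ libraries of the same series, in place of 22 (2.61%). All 22 are among the 58. The share on other chromosomes went from 0.0303% to 2.25%. With fewer libraries to compare against, more genes separate anywhere, so these shares cannot show whether the concentration on chromosome 17 differed. The causes were not tested.

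Same-numbered libraries deviated together weakly (45 pairs, correlations −0.297 to 0.449, 16 above 0.1), so the numbers do not pair the mice. A replicate block added to the surrogate variables gave 843 genes with Hdac2 KO in Htt+/+ mice, and 0 with HttQ111 on each Hdac2 background (1206 and 848 genes at an unadjusted p under 0.05). Under the block, H2-T22 (adjusted p 0.0224) was the only member called with Hdac2 KO in Htt+/+ mice. B2m had an adjusted p of 0.0956 there. H2-Ab1, at 4 to 54 counts per library, is limited by depth.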
